A study of Mus musculus with 6 samples.

Results

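DNA replication genes and other targets of E2F transcription factors were examined in sorted basal cells of the mouse mammary gland. The set was a list of 32 gene symbols, of which 30 were measured among the 22180 genes of the array table. Ccne2 and Rfc4 were not analysed here. Members were listed by name for their roles in replication and as E2F targets, with earlier results of these data known. Counts over the list are therefore descriptions and not tests. The series compared basal cells of mice lacking Trp53 and Cdkn2a (Trp53-/-, p16ink4a-/- and p19arf-/-, called knockout cells here) with basal cells of wild type mice. Each genotype had 3 biological replicates, hybridised to 1 array each. The mice were virgin females between 8 and 14 weeks old, and the cells were sorted by flow cytometry on CD49f and CD24 from freshly digested glands, after beads had depleted cells with CD45, CD31 or TER119. The sources used here state neither the promoter or cell type of any deletion nor whether animals were pooled.

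Before a cell copies its DNA, the origin recognition complex, Cdc6 and Cdt1 load the ring of Mcm2 to Mcm7 onto origins. Cdc45 and the GINS complex then join the ring to form the active helicase, polymerase alpha-primase starts each new strand, and the Rfc complex loads the sliding clamp Pcna, which tethers the polymerases. Transcription of most of these genes is driven by E2F factors, which RB-family proteins hold in check until cyclin-dependent kinases phosphorylate RB. The Cdkn2a product p16Ink4a inhibits the kinases Cdk4 and Cdk6, its other product p19Arf restrains the p53 antagonist Mdm2, and p53 induces the kinase inhibitor Cdkn1a. Both deleted genes therefore act upstream of this set. In the resting virgin gland most basal cells are not dividing.

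All values are log2 expression values from RMA, a method that corrects background, scales arrays to each other and combines the probes of a probe set. Array medians ranged from 5.22 to 5.39, and across genes any pair of arrays correlated with a Pearson r of 0.971 to 0.988. The basal keratin Krt14 averaged 13.25 in knockout cells and 13.37 in wild type cells, and the smooth muscle actin Acta2 12.37 in knockout cells and 12.44 in wild type cells. Of 14 measured basal markers 10 had a lower mean in knockout cells and 4 a higher one. Their log2 fold changes ran from -0.12 to 0.35, with a median of -0.042 and a mean of 0.021. Probe sets of Uty, Kdm5d and Eif2s3y, Y-linked genes that females lack, averaged 4.03, 3.52 and 3.19 in knockout cells and 4.17, 3.54 and 3.18 in wild type cells, which is what these probe sets read with no target. Cdkn2a read 6.25, 6.31 and 6.39 in knockout cells, against 6.42, 5.84 and 6.48 in wild type cells (log2 fold change 0.07, standard error 0.197). The sources used here do not say whether its probes fall inside the deleted part, and Trp53 was not analysed here, so the genotype labels were not checked by their targets.

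E2F factors bind a short GC-rich element near the start of their targets. The 250 bases upstream of each start site (RefSeq, GRCm38.p6) were searched on both strands for TTTCCCGC, TTTCGCGC, TTTGCCGC and TTTGGCGC, 4 words of the E2F site. Of the 30 genes 27 had at least 1 such window, and Mcm4, Gins1 and Gins2 had none in the table. At least 1 word stood upstream of 8 of the 27 genes, which is 29.6%, against 2.16% of all 27025 genes in the table. By window the shares were 22.9% of 35 windows and 1.86% of 32851. The stretches that hold the words are printed from 5′ to 3′ on the strand of the gene, with the words in capitals, because the E2F site is what the set is named for. The other 19 genes held none of these words in their windows.
Mcm6 (chr1:128359729-128359831, minus strand): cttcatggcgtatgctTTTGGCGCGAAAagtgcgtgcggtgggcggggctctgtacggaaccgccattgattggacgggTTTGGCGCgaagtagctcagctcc
Mcm5 (chr8:75109340-75109383, plus strand): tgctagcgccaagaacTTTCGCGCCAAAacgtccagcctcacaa
Mcm7 (chr5:138172025-138172064, minus strand): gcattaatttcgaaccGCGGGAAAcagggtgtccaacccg
Cdc6 (chr11:98907997-98908036, plus strand): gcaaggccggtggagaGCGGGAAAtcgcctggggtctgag
Pola1 (chrX:93632270-93632309, minus strand): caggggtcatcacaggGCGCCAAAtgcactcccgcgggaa
Rfc3 (chr5:151651209-151651234, minus strand): aagtgacgtcgcacgcTTTCGCGCtc
Dnmt1 (chr9:20952819-20952858, minus strand): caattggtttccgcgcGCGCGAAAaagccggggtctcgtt
Uhrf1 (chr17:56304112-56304151, plus strand): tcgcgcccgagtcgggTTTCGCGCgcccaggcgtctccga

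In Mcm6 and Mcm5 a word on the gene's strand overlaps a word on the opposite strand, and Mcm6 holds a further word that ends 40 bases before its start. In Cdc6, Mcm7, Pola1 and Dnmt1 the word lies on the opposite strand. The CCAAT box (CCAAT) stood in the windows of 18 of the 27 genes (66.7%, against 37.5% of all genes), and the GC box (GGGCGG) likewise of 18 (66.7%, against 35.4%). The word TTTGAA of the CHR element, which is known from mitotic genes, stood in those of 5 (18.5%, against 18.3%). Of the 8 genes with an E2F word 6 had a lower mean in knockout cells, with a median log2 fold change of -0.14, and of the 19 without one 13 did, with a median of -0.09. A match in these letters is a description and no evidence of binding.

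With all arrays, replication genes as a set read slightly lower in knockout cells, and no single gene passed the test. Without wild type replicate 3 the median log2 fold change of the set turned to the opposite sign, as given below. Of the 30 genes 22 had a log2 fold change below 0 (knockout minus wild type), which is 73.3%, against 51.7% of all genes tested. The median log2 fold change was -0.12, against -0.0067 over all genes. With arrays weighted by how well they fit, the median was -0.273, and these weights gave wild type replicate 3 1.978, against 0.596 and 0.461 for wild type replicates 1 and 2. With limma fitted over all genes and Benjamini-Hochberg adjustment at a threshold of 0.05, 0 of the 30 genes and 0% of the 22180 genes passed. At an unadjusted p under 0.05 there were also 0 of the 30, in either direction, where 1.71% of all genes were lower and 1.61% higher. Every one of the 30 intervals (95%, from the same fit) included 0. Their outermost bounds were -1.16, for Mcm6, and 0.83, for Slbp. Each interval holds for its own gene, and changes inside it were not excluded with 3 arrays per genotype. The exact permutation test of 3 arrays against 3 for a single gene cannot give a p below 0.1. As these are bulk samples, fewer cycling cells and less RNA per cycling cell could not be told apart in any such difference.

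**Figure D1:**
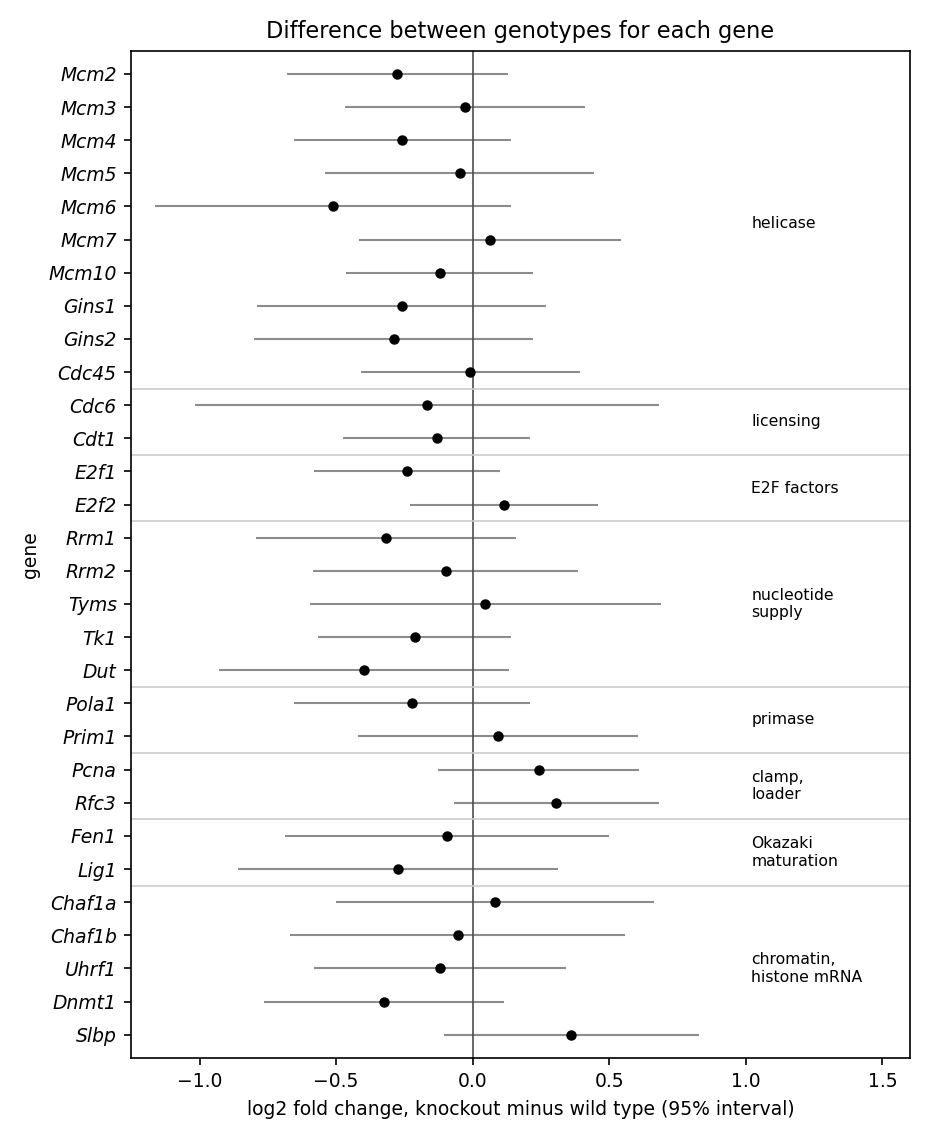
Log2 fold change of each of the 30 genes (x axis, knockout minus wild type) with its 95% interval from limma, by functional group. All intervals include 0, with Mcm6 at -0.51 the furthest below and Slbp at 0.36 the furthest above.

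The array that stood out was wild type replicate 3. It held the highest of all 6 values for 18 of the 30 genes, against 14.1% of all genes. Over the 3 wild type arrays alone it was highest for 20 of the 30, against 25.2% of all genes, while replicate 2 was highest for 7 (against 36.2%) and replicate 1 for 3 (against 38.5%). The lowest of all 6 values lay on knockout replicate 3 for 6 genes (against 15.4% of all genes), on wild type replicate 1 for 8 (against 15.2%) and on wild type replicate 2 for 8 (against 24.3%). The 30 genes averaged 6.58, 6.58 and 6.52 in knockout cells, against 6.55, 6.56 and 6.89 in wild type cells. Wild type replicates 1 and 2 thus lay inside the knockout range in this mean, and replicate 3 alone lay outside it. Arrays of the same replicate number differed by 0.04, 0.02 and -0.37. Without wild type replicate 3, 13 of the 30 genes were lower in knockout cells and the median log2 fold change was 0.059, the opposite sign. At an unadjusted p under 0.05 the counts moved with the other wild type arrays. Without wild type replicate 1, 6 of the 30 genes were lower (against 4.77% of all genes) and 2 higher (against 3.3%), and without wild type replicate 2, 1 was lower (against 2.38%) and 1 higher (against 1.92%). Weighting arrays by their fit gave 4 lower (against 4.71%) and 2 higher (against 4.17%), and the replicate block gave 0 lower (against 2.64%) and 0 higher (against 2.38%). None of the 30 passed after adjustment in any of these fits.

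**Figure D2:**
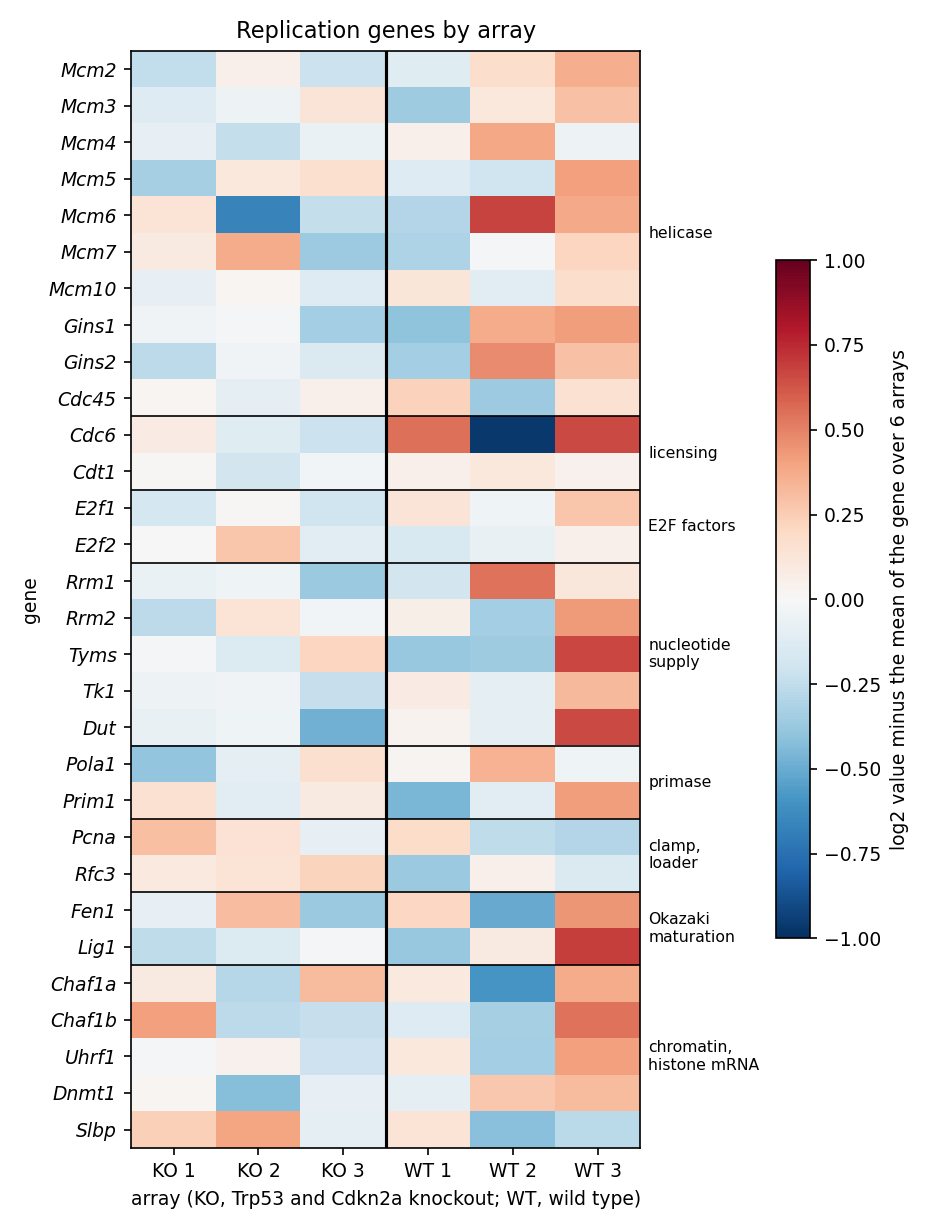
Log2 value of each gene on each array minus the gene's mean over 6 arrays (colour), with genes in rows by functional group and arrays in columns (KO, knockout; WT, wild type). The column of WT 3 is the warmest, with 18 of 30 genes at their highest value there.

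**Figure D3:**
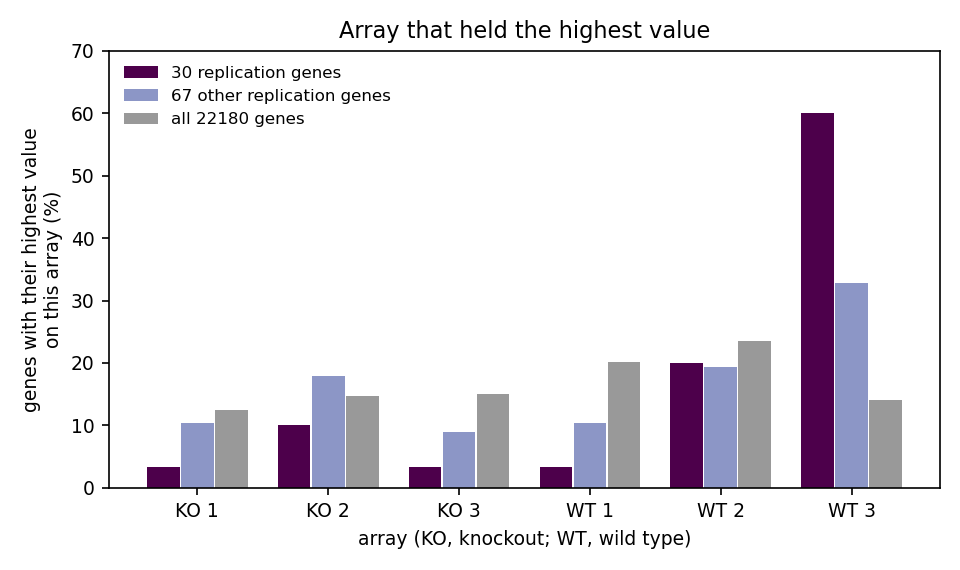
Percent of genes (y axis) whose highest of 6 values fell on each array (x axis), for the 30 replication genes, 67 other replication genes and all 22180 genes. WT 3 held the highest value of 60% of the 30 genes, 32.8% of the other replication genes and 14.1% of all genes.

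Mitosis genes shared their highest array with the set. The mean of 19 measured mitosis markers (Mki67, Top2a, Ccnb2, Plk1 and others) was 5.13, 5.32 and 5.56 in knockout cells, against 5.55, 5.12 and 6.45 in wild type cells. Wild type replicate 3 was the highest array for 16 of the 19 (84.2%, against 14.1% of all genes). A lower mean in knockout cells was found for 18 of the 19 (against 51.7% of all genes). In the list mean, wild type replicate 1 lay inside the knockout range and replicate 2 just below it. Only replicate 3 lay above that range, and the count of lower genes was not repeated without it. Genes listed as luminal markers were lower in knockout cells for 18 of 19. The sort was meant to leave luminal cells out, but which cells gave these signals was not tested. The list averaged 7.85, 8.01 and 7.54 in knockout cells, against 7.54, 8.57 and 8.29 in wild type cells. Immune markers had 8 of 11 genes higher in knockout cells, with array means of 5.08 to 5.20 in knockout cells and 4.93 to 5.10 in wild type cells. Fibroblast markers were higher in knockout cells for all 8 genes, with array means of 7.20 to 7.32 in knockout cells and 6.53 to 6.85 in wild type cells, and the means were lowest on wild type replicate 3. Immediate early and dissociation stress genes were higher in knockout cells for 20 of 20 genes, with array means of 9.90, 10.41 and 9.33 in knockout cells, against 9.54, 9.90 and 9.10 in wild type cells. Their lowest value lay on wild type replicate 3 for 14 of the 20, against 17.2% of all genes. Adipocyte markers were higher in knockout cells for 5 of 6 genes, with array means of 6.13 to 6.24 in knockout cells and 5.81 to 5.97 in wild type cells. Endothelial markers were higher for 4 of 8, with array means of 5.37 to 5.50 in knockout cells and 5.24 to 5.56 in wild type cells. The part of these lists in the difference of the replication genes was not tested.

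Knockout arrays also lay closer to each other than wild type arrays did for these genes. The SD over the 3 arrays was smaller in knockout cells for 25 of the 30 genes, against 61.5% of all genes. The median SD of a gene was 0.178 in knockout cells and 0.335 in wild type cells. Over all genes these medians were 0.161 in knockout cells and 0.209 in wild type cells. The median absolute difference between a pair of knockout arrays was 0.192 to 0.235 for the 30 genes, and between a pair of wild type arrays 0.384 to 0.405. Wild type replicates 1 and 2, without replicate 3, differed by 0.386 in this measure. The corresponding values over all genes were 0.172 to 0.203 between knockout arrays and 0.209 to 0.281 between wild type arrays.

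Helicase genes lay mostly below 0. Of the 10 genes of the MCM ring, Mcm10, GINS and Cdc45, 9 had a lower mean in knockout cells, with a median log2 fold change of -0.19. The group averaged 6.39, 6.43 and 6.37 in knockout cells, against 6.33, 6.63 and 6.75 in wild type cells. Wild type replicate 1 lay below every knockout array and the other wild type arrays lay above them. Without wild type replicate 3, 6 of the 10 were lower and the median was -0.090, with Mcm3, Mcm5 and Cdc45 above 0.

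Mcm6, a subunit of the ring, had the largest difference of the set in either direction. It read 8.07, 7.26 and 7.69 in knockout cells, against 7.64, 8.61 and 8.31 in wild type cells. The groups overlapped because wild type replicate 1 was below knockout replicates 1 and 3. Its log2 fold change was -0.51 (standard error 0.288, 95% interval -1.16 to 0.14), 0.701 times the wild type level, with an adjusted p of 1.0 from limma. Same-numbered arrays differed by 0.43, -1.35 and -0.62. Without any one of the arrays its log2 fold change stayed between -0.785 and -0.302.

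Mcm4, another ring subunit, was 1 of only 2 genes in the set with every knockout array below every wild type array, where 4.05% of all genes did so. It read 8.42, 8.26 and 8.43 in knockout cells, against 8.55, 8.89 and 8.45 in wild type cells. The gap between the groups was 0.02 at its narrowest, and the log2 fold change was -0.26 (standard error 0.175). Mcm2, the ring subunit that also binds histones, read 6.06, 6.36 and 6.10 in knockout cells, against 6.19, 6.49 and 6.67 in wild type cells. Each knockout array was below the wild type array of its number, by 0.13, 0.12 and 0.57, although the groups overlapped. Only 3 of the 30 genes (Mcm2, Mcm4 and Cdt1) were lower in all 3 same-numbered pairs, against 12.3% of all genes.

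The remaining ring subunits were close to 0. Mcm3 read 5.88, 5.96 and 6.14 in knockout cells, against 5.65, 6.12 and 6.30 in wild type cells, a log2 fold change of -0.03 (95% interval -0.47 to 0.41). Mcm5 read 6.10, 6.54 and 6.59 in knockout cells, against 6.30, 6.23 and 6.84 in wild type cells, at -0.05 (-0.54 to 0.44). Mcm7, the single helicase gene with a higher mean in knockout cells, read 5.16, 5.44 and 4.71 in knockout cells, against 4.77, 5.06 and 5.29 in wild type cells, at 0.06 (-0.41 to 0.54). In all of these the groups overlapped widely, and the subunits of the ring did not share one order of arrays.

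The GINS genes of the set, Gins1 and Gins2, ordered the arrays alike in part. Gins1 read 6.02, 6.03 and 5.72 in knockout cells, against 5.65, 6.42 and 6.47 in wild type cells. Gins2 read 6.88, 7.11 and 6.997 in knockout cells, against 6.80, 7.61 and 7.43 in wild type cells. For both, wild type replicate 1 was the lowest of the 6 arrays and the other wild type arrays were the highest, so the mean difference came from 2 wild type arrays. The log2 fold change was -0.26 for Gins1 (standard error 0.233) and -0.29 for Gins2 (standard error 0.226). The other subunits of the complex were named here after their values were seen. Gins3 did not share this order and read 5.07, 5.20 and 5.15 in knockout cells, against 5.37, 4.94 and 5.40 in wild type cells. Gins4 shared it in part and read 8.14, 8.64 and 8.03 in knockout cells, against 7.88, 8.66 and 8.18 in wild type cells. Its lowest array was wild type replicate 1 and its highest wild type replicate 2, but wild type replicate 3 was below knockout replicate 2. Cdc45, which completes the active helicase, read 5.25, 5.13 and 5.28 in knockout cells, against 5.45, 4.86 and 5.38 in wild type cells (log2 fold change -0.01, 95% interval -0.41 to 0.39). Mcm10, needed to start the helicase, read 6.06, 6.17 and 6.02 in knockout cells, against 6.26, 6.03 and 6.32 in wild type cells, at -0.12 (-0.46 to 0.22).

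The licensing factors differed in how far the wild type arrays spread. Cdt1, which brings the ring to origins, was very even and read 6.75, 6.55 and 6.71 in knockout cells, against 6.79, 6.84 and 6.78 in wild type cells. All its knockout arrays lay below all its wild type arrays, with a log2 fold change of -0.13 (standard error 0.151). Cdc6, the ATPase that loads the ring together with Cdt1, read 5.34, 5.14 and 5.04 in knockout cells, against 5.81, 4.29 and 5.91 in wild type cells. Its wild type spread was the widest of the set, with an SD of 0.155 in knockout cells and 0.907 in wild type cells. Wild type replicate 2 was far below every other array, and the knockout arrays lay between it and the other wild type arrays. Its log2 fold change of -0.17 became 0.12 without wild type replicate 3 and -0.69 without wild type replicate 2.

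The E2F factors of the set lay on opposite sides of 0. E2f1, an activating E2F that is itself induced at the start of S phase, read 5.48, 5.67 and 5.46 in knockout cells, against 5.79, 5.61 and 5.94 in wild type cells. Wild type replicate 2 alone was between the knockout values, and the log2 fold change was -0.24 (95% interval -0.58 to 0.10). E2f2, a related activator, read 5.31, 5.58 and 5.18 in knockout cells, against 5.15, 5.23 and 5.35 in wild type cells, with overlapping groups and a log2 fold change of 0.11 (-0.23 to 0.46).

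Nucleotide supply genes had 4 of 5 members lower in knockout cells, with a median log2 fold change of -0.21. The group averaged 6.44, 6.50 and 6.35 in knockout cells, against 6.45, 6.46 and 6.97 in wild type cells, so wild type replicates 1 and 2 were level with the knockout arrays. Wild type replicate 3 held the highest value of 4 of the 5 genes, all but Rrm1, and without it 3 of the 5 were lower with a median of -0.102. Dut, the dUTPase that keeps uracil out of DNA, read 7.20, 7.23 and 6.79 in knockout cells, against 7.30, 7.18 and 7.93 in wild type cells. Its log2 fold change was -0.40 (standard error 0.234), and the difference between the arrays numbered 3, -1.14, was far larger than the -0.11 and 0.05 between those numbered 1 and 2. With the mean over both rows of Dut the log2 fold change was -0.203, as its other probe set, at the level of the Y-linked ones, differed by -0.0091. Tyms, which makes thymidylate and is inhibited by fluorouracil, read 7.29, 7.16 and 7.51 in knockout cells, against 6.92, 6.94 and 7.97 in wild type cells. Its knockout arrays all lay between the lower wild type arrays and wild type replicate 3, and the log2 fold change was 0.05 (-0.60 to 0.69).

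Ribonucleotide reductase makes deoxyribonucleotides, with Rrm1 as its large subunit and Rrm2 as the small subunit made in S phase. Rrm1 read 6.37, 6.39 and 6.07 in knockout cells, against 6.25, 6.97 and 6.55 in wild type cells, a log2 fold change of -0.32 (-0.79 to 0.16). Rrm2 read 5.83, 6.23 and 6.07 in knockout cells, against 6.16, 5.76 and 6.52 in wild type cells, a log2 fold change of -0.10 (-0.58 to 0.39). The subunits thus ordered the wild type arrays differently, with replicate 2 the highest for Rrm1 and the lowest for Rrm2. A dimmer probe set of Rrm2, left out by the choice of rows, averaged 3.50 in knockout cells and 3.95 in wild type cells, a difference of -0.455. These values were in the range of the Y-linked probe sets, so the size of this difference is uncertain. With the mean over both rows of Rrm2 the log2 fold change was -0.277. Tk1, the thymidine kinase of S phase, read 5.49, 5.50 and 5.31 in knockout cells, against 5.62, 5.45 and 5.87 in wild type cells, at -0.21 (-0.57 to 0.14).

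The 2 measured genes of the clamp and its loader, Pcna and Rfc3, lay above 0, where the helicase lay mostly below. Rfc3, a loader subunit, was the single gene of the set with every knockout array above every wild type array, where 3.63% of all genes did so. It read 6.58, 6.62 and 6.71 in knockout cells, against 6.11, 6.54 and 6.34 in wild type cells, a log2 fold change of 0.31 (standard error 0.166, 95% interval -0.07 to 0.68, limma adjusted p = 1.0). Pcna, the clamp and also a known p53 target, read 11.77, 11.62 and 11.39 in knockout cells, against 11.66, 11.22 and 11.18 in wild type cells. Each knockout array was above the wild type array of its number, by 0.11, 0.40 and 0.21, and the log2 fold change was 0.24 (-0.13 to 0.61). The groups overlapped, as wild type replicate 1 was above knockout replicates 2 and 3. The mean of both genes was 9.18, 9.12 and 9.05 in knockout cells, against 8.89, 8.88 and 8.76 in wild type cells. Wild type replicate 3, the highest array for most of the set, was the lowest array for Pcna. Other loader subunits, named here after their values were seen, lay closer to 0 than Rfc3. Their log2 fold changes were 0.145 for Rfc1, 0.066 for Rfc2 and 0.026 for Rfc5. In each the groups overlapped and same-numbered arrays differed in both directions.

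**Figure D4:**
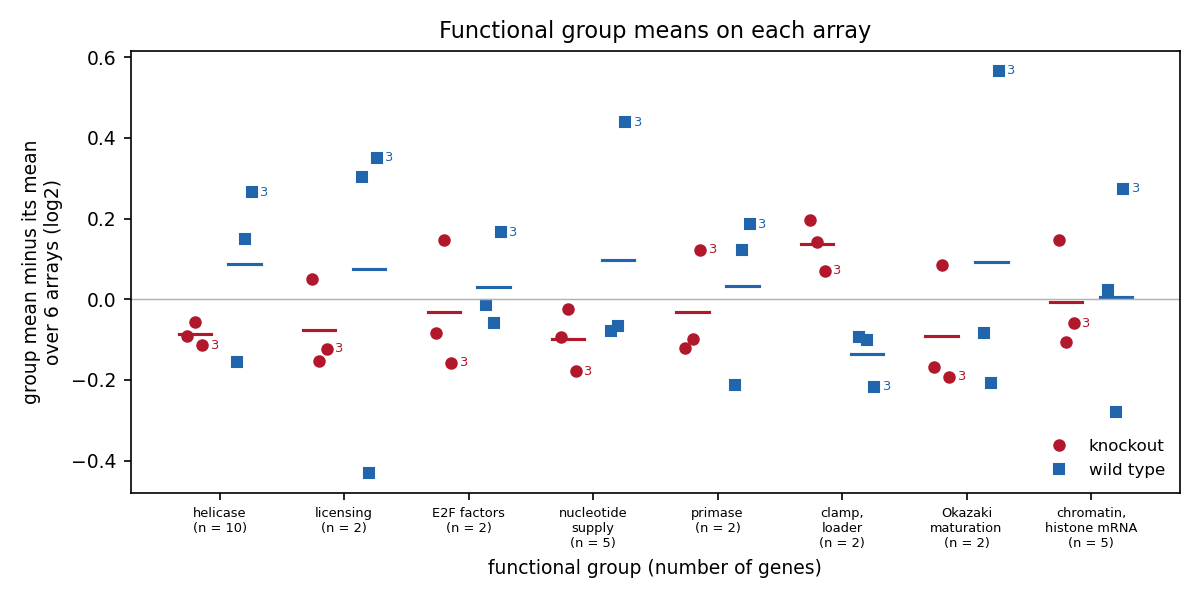
Mean log2 value of each functional group on each array minus the group's mean over 6 arrays (y axis), with knockout arrays as circles left of wild type arrays as squares, lines at the genotype means and replicate 3 numbered. Wild type replicate 3 is the highest point in every group except the clamp and loader (Pcna and Rfc3), where the knockout arrays lie above all wild type arrays.

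Genes of polymerase alpha-primase and of the enzymes that finish Okazaki fragments had intervals that included 0, as did the rest of the set. Pola1, the catalytic subunit of polymerase alpha, read 5.72, 6.03 and 6.28 in knockout cells, against 6.15, 6.47 and 6.07 in wild type cells, a log2 fold change of -0.22 (-0.65 to 0.21). Prim1, the catalytic primase subunit, read 6.57, 6.31 and 6.50 in knockout cells, against 5.96, 6.31 and 6.83 in wild type cells, at 0.09 (-0.42 to 0.61). The partners thus had means on opposite sides of 0. Fen1, the flap nuclease that trims fragments, read 5.04, 5.43 and 4.75 in knockout cells, against 5.33, 4.61 and 5.56 in wild type cells, at -0.09 (-0.69 to 0.50), and its other probe set differed by -0.044. Lig1, the ligase that joins fragments, read 6.90, 7.01 and 7.14 in knockout cells, against 6.77, 7.25 and 7.85 in wild type cells, at -0.27 (-0.86 to 0.31). For Lig1 the wild type arrays spread on both sides of the knockout arrays, with an SD of 0.122 in knockout cells and 0.536 in wild type cells. Without wild type replicate 3 neither Fen1 nor Lig1 was lower in knockout cells.

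Genes that rebuild chromatin behind the fork were mixed, with 3 of 5 lower and a median log2 fold change of -0.055, and 1 of 5 lower with a median of 0.202 without wild type replicate 3. Slbp, which binds the stem-loop of histone mRNAs, had the largest positive difference of the set. It read 8.87, 9.03 and 8.54 in knockout cells, against 8.77, 8.22 and 8.37 in wild type cells, a log2 fold change of 0.36 (standard error 0.206, 95% interval -0.11 to 0.83). Each knockout array was above the wild type array of its number, by 0.10, 0.81 and 0.18, and only wild type replicate 1 reached into the knockout range. Slbp, Pcna and Rfc3 were the 3 genes higher in all same-numbered pairs, against 11.6% of all genes.

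Dnmt1, the maintenance DNA methyltransferase, read 8.28, 7.84 and 8.18 in knockout cells, against 8.16, 8.54 and 8.58 in wild type cells. The value of wild type replicate 1 was between those of the knockout arrays, and the log2 fold change was -0.32 (-0.77 to 0.12). Its partner Uhrf1, which recruits it to newly copied DNA, read 5.98, 6.05 and 5.79 in knockout cells, against 6.11, 5.66 and 6.41 in wild type cells, at -0.12 (-0.58 to 0.34). Dnmt1 and Uhrf1 had their highest value on wild type replicate 3, and differed in their lowest array, knockout replicate 2 for Dnmt1 and wild type replicate 2 for Uhrf1. Chaf1a and Chaf1b, subunits of the CAF-1 complex that places histones on new DNA, lay on either side of 0, Chaf1a at 0.08 (-0.50 to 0.66) and Chaf1b at -0.06 (-0.67 to 0.56). Chaf1a read 5.58, 5.21 and 5.82 in knockout cells, against 5.60, 4.91 and 5.87 in wild type cells. Chaf1b read 7.25, 6.59 and 6.62 in knockout cells, against 6.72, 6.52 and 7.39 in wild type cells. Same-numbered arrays of Chaf1a were close for replicates 1 and 3 and 0.31 apart for replicate 2.

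Other replication genes lay nearer to all genes. A list covering origin recognition, polymerases, fork protection, nucleotide supply, the E2F and RB family and chromatin assembly had 67 measured genes, and 39 had a lower mean in knockout cells (58.2%), with a median log2 fold change of -0.029. None passed over all genes, and at an unadjusted p under 0.05 there was 1 higher (1.49%, against 1.61% of all genes) and 0 lower (against 1.71%). With the replicate block there were 1 higher (1.49%, against 2.38% of all genes) and 2 lower (2.99%, against 2.64%), Tk2 and Dscc1. Dscc1 read 3.91, 3.91 and 4.68 in knockout cells, against 4.52, 4.03 and 5.04 in wild type cells. Some of these values were in the range of the Y-linked probe sets. Tk2, the mitochondrial thymidine kinase, read 5.64, 6.26 and 5.89 in knockout cells, against 6.03, 8.06 and 6.05 in wild type cells, where replicate 2 alone stood far above the rest (log2 fold change -0.78, standard error 0.486). Wild type replicate 3 held the highest value of 22 of the 67, which is 32.8%. Their array means were 6.67, 6.73 and 6.67 in knockout cells, against 6.62, 6.70 and 6.84 in wild type cells.

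Among the RB family, Rbl1 (p107), itself an E2F target, read 5.65, 5.51 and 5.05 in knockout cells, against 5.53, 5.89 and 6.43 in wild type cells, a log2 fold change of -0.54 (95% interval -1.11 to 0.02). Its wild type replicate 3 was again the highest array. Rb1 lay at -0.03 (standard error 0.223) and Rbl2 at 0.06 (standard error 0.242). E2f3, a further activator, had a log2 fold change of -0.36 (-0.85 to 0.13), the repressor E2f7 of -0.19 (-0.52 to 0.15) and the repressor E2f8 of -0.03 (-1.17 to 1.10). E2f8 spread widely on both sides, at 6.63, 5.83 and 7.12 in knockout cells, against 7.25, 5.35 and 7.09 in wild type cells, with replicate 2 the lowest in each genotype. Ccne1, the cyclin that drives entry into S phase, read 6.81, 7.84 and 6.58 in knockout cells, against 6.85, 6.44 and 6.62 in wild type cells. A single array, knockout replicate 2, set its mean difference of 0.44.

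Atad5, which unloads Pcna from finished DNA, was the higher gene at an unadjusted p under 0.05. It read 4.05, 4.56 and 4.68 in knockout cells, against 3.90, 3.67 and 4.13 in wild type cells, a log2 fold change of 0.53 (standard error 0.191, limma adjusted p = 1.0). Its wild type values were in the range of the Y-linked probe sets without a target, so the size of this difference is uncertain. Pole2, a subunit of polymerase epsilon, read 5.32, 4.90 and 5.28 in knockout cells, against 5.46, 5.34 and 5.48 in wild type cells, so the groups did not overlap, at -0.26 (-0.61 to 0.09). Orc6, an origin recognition subunit, had a log2 fold change of 0.31 (-0.09 to 0.72), and Gmnn (geminin), which blocks Cdt1 after origins have fired, of 0.22 (-0.39 to 0.83). Cdc7, the kinase that activates the loaded ring, was narrowly lower on all knockout arrays, at 5.30, 5.25 and 5.07 in knockout cells, against 5.30, 5.42 and 5.34 in wild type cells. Its log2 fold change was -0.15 (-0.45 to 0.16). Pole2 and Cdc7 were the only 2 of the 67 genes with every knockout array below every wild type array, against 4.05% of all genes. Dck alone had every knockout array above, against 3.63% of all genes.

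**Figure D5:**
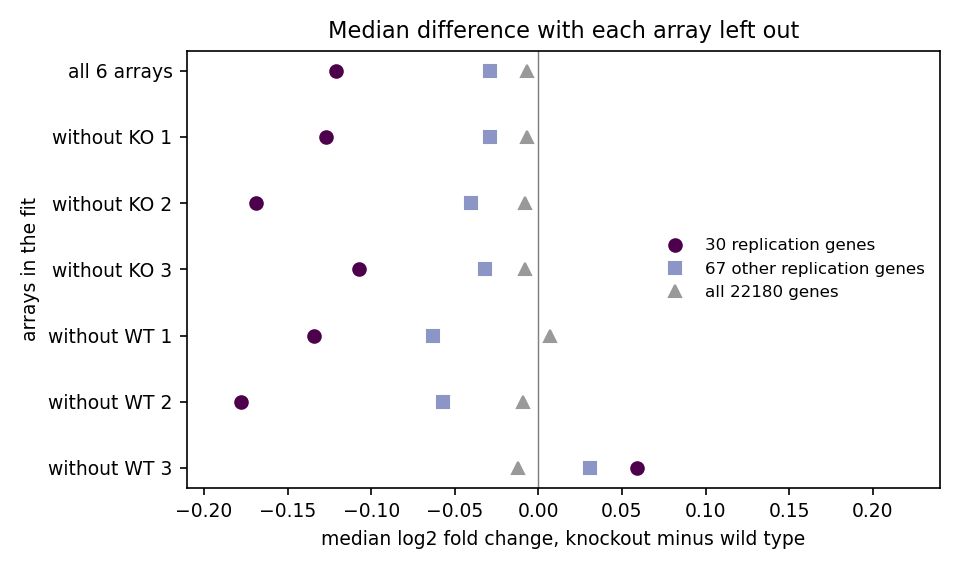
Median log2 fold change (x axis, knockout minus wild type) over the 30 replication genes, 67 other replication genes and all 22180 genes, with all arrays and with each array left out (rows). The median of the 30 genes lies between -0.178 and -0.107 with all arrays and without each of the others, and at 0.059 without WT 3.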

How the data were processed

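Basal cells were profiled on 6 arrays, 3 per genotype. Per the submitters' processing notes, the deposited log2 values were made per probe set with RMA and Transcriptome Analysis Console 4.0. RNA was amplified with a whole-transcript Pico kit per the labels' protocols. Of 41345 rows 23521 carried 1 gene symbol, 1814 several, and 16010 were unnamed here. Rows with 1 symbol were used, keeping the row of highest mean per gene, which left 22180 genes; Dut, Fen1 and Rrm2 had a second row. No array equalled another. Depth does not apply to arrays, and their number limits the precision.

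The test between genotypes was limma 3.58.1 under R 4.3.3. It used lmFit and eBayes with trend, gave two-sided p-values adjusted by Benjamini-Hochberg over all genes, and was tested on simulated data. Bracketed ranges after a log2 fold change are its 95% interval. Figures used matplotlib 3.10.9.

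Members and lists were chosen with earlier results of these data known, so lists were described by counts and medians and not tested. By the rule for named genes all members could be named, and of the other lists the 4 genes of smallest p, the E2F and RB genes, Ccne1 and Gmnn. For arrays of one number, deviations from the genotype means had correlations of 0.121, 0.250 and 0.127 over genes. The numbers were therefore taken to pair arrays, but only in the same-numbered differences and in the replicate block. No label says what the numbers share, and knockout replicate 3 reached 0.130 with wild type replicate 1. The main limma fit, which gave the 95% intervals, did not pair arrays. Alternatives were other priors, array weights, other normalizations, a filter on dim genes, other row rules, the replicate block and each array left out. Replicates are called biological by the labels.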

Additional observations from a re-analysis of the deposited data

How the results depend on the processing

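Under the other settings tried (a prior without trend, array weights, quantile normalization, median centring, a filter at a mean log2 value of 5, the mean over all rows of a gene, the replicate block, a threshold of 0.1, and each array left out), 0 genes and 0 of the 30 passed. The replicate block left the median at -0.121 with 22 of 30 lower, and changed no call. Array weights moved the median to -0.273. With an array left out, genes lower in knockout cells numbered 13 to 23 and the median lay between -0.178 and 0.059, where both 13 and 0.059 were without wild type replicate 3. At an unadjusted p under 0.05 there were 6 of the 30 with array weights (4 lower against 4.71% of all genes, 2 higher against 4.17%) and 8 without wild type replicate 1 (6 lower, Dnmt1, Gins1, Gins2, Lig1, Mcm6 and Rrm1, against 4.77%; 2 higher, Pcna and Slbp, against 3.3%). Without wild type replicate 2 there were 2, Cdc6 lower (against 2.38%) and Rfc3 higher (against 1.92%). The sign turned with array weights for Mcm7 (-0.042), Tyms (-0.290), Prim1 (-0.088) and Chaf1a (-0.110), and with quantile normalization for Mcm3 (0.001). With some array left out it turned for 13 genes, whose values ran from -0.195 to 0.101 for Cdc45, -0.691 to 0.12 for Cdc6, -0.195 to 0.285 for Chaf1a, -0.273 to 0.202 for Chaf1b, -0.371 to 0.103 for Fen1, -0.53 to 0.005 for Lig1 and -0.216 to 0.111 for Mcm3. They ran from -0.161 to 0.143 for Mcm5, -0.105 to 0.261 for Mcm7, -0.111 to 0.326 for Prim1, -0.292 to 0.088 for Rrm2, -0.133 to 0.392 for Tyms and -0.319 to 0.054 for Uhrf1. The other 17 kept their sign. The cause was not tested.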
